A study of Mus musculus with 42 samples.

Results

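The genes described here are 10 NRF2-type antioxidant genes, a set named after the transcription factor NRF2, measured by RNA-seq in mouse cerebellum. The set includes the gene of NRF2 itself, and a place in it does not make a gene a target of NRF2. The genes were matched by name, by a rule that uses no measured value, although the set was proposed with earlier results of these data known. All 10 were found among the 35275 genes of the deposited tables: Nfe2l2, Nqo1, Hmox1, Gclc, Gclm, Srxn1, Txnrd1, Gsr, Cat and Sod2. The study asked how intermittent fasting, and a return to free feeding after it, affects the cerebellar transcriptome. Of its 42 samples, the 30 RNA libraries were used, and the 12 chromatin immunoprecipitation and input samples were not analysed here.

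Every mouse was a male of the strain given as C57BL/6 in the labels and as C57/BL6NTac in the design text, fed freely on 1 standard rodent diet until 3 months of age. From then on AL mice kept free access to food, IF16 mice went without food for 16 h of each day, and EOD mice had food and no food on alternate periods of 24 h. These 3 groups were collected at 6 months of age. The refed AL, refed IF16 and refed EOD groups, marked by an added R in the labels and plots, passed through the same 3 regimens and were then all fed freely for 2 months before collection at 8 months of age, so refed AL differs from AL by age as well as by cohort. Each of the 6 groups had 5 libraries. The labels do not state that each library came from a separate mouse, so p-values measure the spread between these libraries, and the hour of collection relative to the last meal is not given in the sources used here.

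NRF2, encoded by Nfe2l2, is held at a low level by KEAP1, which binds it and presents it to a CUL3 and RBX1 ubiquitin ligase for degradation. Oxidants and electrophiles modify KEAP1, NRF2 accumulates, pairs with a small MAF protein and binds antioxidant response elements near genes that make glutathione, reduce thioredoxin and detoxify quinones and heme. The control acts mainly on the NRF2 protein, so the level of Nfe2l2 RNA is not a readout of NRF2 activity, whereas Nqo1, Hmox1, Gclc, Gclm, Srxn1 and Txnrd1 are widely used target genes. In the brain the program is known chiefly from astrocytes, and bulk cerebellum RNA is dominated by granule cells. In bulk tissue, fewer cells of a type and less RNA per cell cannot be told apart.

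The promoters of the 3 members below are printed because each holds the letters of the response element close to the start of a gene whose levels the results turn on, and because Gclm and Srxn1 are the only members that passed the test in any comparison. Each is the 250 bases before a RefSeq transcription start of GRCm38.p6, 5′ to 3′ on the strand of the gene, and capitals mark matches to the core of the antioxidant response element, searched as TGACNNNGC or TGAGNNNGC on both strands. A match on the opposite strand appears in the printed strand as its reverse complement. The Gclm window is chr3:122245307-122245556 on the plus strand, with the match TGACGGTGC on the opposite strand, its first base 126 bases before the start. The Srxn1 window is chr2:152105274-152105523 on the plus strand, with TGAGTCGGC on the opposite strand 150 bases before the start and TGAGTCAGC on the strand of the gene 45 bases before it. The second of these overlaps an AP-1 site (TGANTCA). The Txnrd1 window, the 1 of 3 RefSeq starts that adjoins the gene start in the deposited tables, is chr10:82858956-82859205 on the plus strand, with TGACAAAGC on the opposite strand 84 bases before the start.
Gclm: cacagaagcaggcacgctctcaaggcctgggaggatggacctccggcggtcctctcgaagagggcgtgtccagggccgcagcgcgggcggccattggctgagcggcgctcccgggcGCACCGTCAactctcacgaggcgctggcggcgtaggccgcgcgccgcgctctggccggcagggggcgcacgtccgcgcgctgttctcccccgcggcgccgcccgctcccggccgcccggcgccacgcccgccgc
Srxn1: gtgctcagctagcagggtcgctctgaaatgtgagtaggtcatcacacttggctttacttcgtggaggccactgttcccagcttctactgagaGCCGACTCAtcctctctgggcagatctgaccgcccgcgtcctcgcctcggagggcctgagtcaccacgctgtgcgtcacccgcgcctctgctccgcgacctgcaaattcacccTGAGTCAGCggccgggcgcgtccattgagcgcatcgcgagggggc
Txnrd1: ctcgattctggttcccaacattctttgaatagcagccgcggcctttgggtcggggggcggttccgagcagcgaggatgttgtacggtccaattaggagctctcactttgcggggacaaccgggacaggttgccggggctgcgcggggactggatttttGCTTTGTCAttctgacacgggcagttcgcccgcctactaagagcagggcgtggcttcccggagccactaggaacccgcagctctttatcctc

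Of the 10 members, 7 had at least 1 promoter window in the RefSeq table (Nfe2l2, Nqo1, Gclm, Srxn1, Txnrd1, Cat and Sod2), and 4 of these 7 held a match. The fourth was Nfe2l2 itself, with TGACTCCGC on the strand of the gene 240 bases before the start at chr2:75704664-75704913 on the minus strand. Counted by window, 4 of the 9 windows of the members held a match, and the Txnrd1 windows not printed above held none. Across the whole table, 23% of 32851 windows and 25.7% of 27025 genes held a match. A match describes letters in the window and not a bound site.

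The members spanned a wide range of levels. On the FPKM scale, which divides by gene length and so allows genes to be compared, Srxn1 (sulfiredoxin, which reactivates overoxidised peroxiredoxins) had the highest mean over the 30 libraries at 37.8 FPKM, followed by Sod2, the manganese superoxide dismutase of mitochondria, at 33.6 FPKM. Txnrd1, the cytosolic thioredoxin reductase, had 21.9 FPKM, and the subunits of glutamate-cysteine ligase, the first step of glutathione synthesis, had 19.5 FPKM (Gclm, modifier) and 19.0 FPKM (Gclc, catalytic). Glutathione reductase (Gsr) and catalase (Cat) followed at 16.8 and 15.6 FPKM. These 7 genes lay between percentiles 68.8 and 86.7 of the 15006 tested protein-coding genes. Nfe2l2 stood at 7.43 FPKM, percentile 50, and Nqo1, a quinone reductase, at 5.98 FPKM, percentile 44.9. Hmox1, the inducible heme oxygenase, was the lowest at 2.36 FPKM, percentile 28.3, with 95 to 186 counts per library, whereas the other 9 members had at least 210 counts in every library. All 10 members passed the filter on low counts in each fit. In the deposited tables, on mm10, Nfe2l2 (ENSMUSG00000015839) spans chr2:75675513-75704641 on the minus strand, Gclm (ENSMUSG00000028124) chr3:122245557-122269984 on the plus strand and Srxn1 (ENSMUSG00000032802) chr2:152105516-152111376 on the plus strand, and all 3 are protein-coding. Gclm overlaps 2 other annotated genes, the opposite-strand Gm17494, with a mean of 30.5 counts, and Gm6061, with no counts.

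Total counts per library ran from 26799825 to 36167435. The cerebellar markers were high in every library: the 6 granule cell genes summed to between 5045 and 5846 CPM (read counts scaled to library size, here and below with TMM factors over the 30 libraries) and the 6 Purkinje cell genes to between 8026 and 9696 CPM, against 5.0 to 8.87 CPM for 4 forebrain genes. Choroid plexus markers varied far more, with sums from 34.4 to 4272 CPM over 11 genes, and microglia markers summed to between 82.1 and 121 CPM over 5 genes. The 5 oligodendrocyte genes summed to 4557 to 5059 CPM in refed AL, without overlap with AL (5228 to 6070) or refed EOD (5080 to 6073). Refed IF16, at 4718 to 6429 CPM, overlapped refed AL. The 6 astrocyte and Bergmann glia genes summed to 2051 to 2302 CPM in refed AL, 2298 to 2482 in refed IF16 and 2294 to 2453 in refed EOD. Whether the members follow these glial sums was not tested. Libraries also differed in a length gradient, the slope of log2 CPM on log2 gene length, which ran from -0.187 to 0.0953 in the libraries of AL, IF16 and EOD and from 0.0113 to 0.0786 in the refed groups. AL replicates 4 and 5, IF16 replicate 1 and EOD replicate 4 stood apart in this measure at -0.187, -0.137, -0.148 and 0.0953, and results are given with and without them where that matters.

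The ratio of the highest to the lowest of the 6 group means ran from 1.01 for Gsr to 1.39 for Nqo1. When each gene's groups were ordered by mean CPM, neighbouring groups overlapped in 50 of 50 pairs, while groups farther apart in that order could be separate, as described for refed AL against AL. Against AL, no member passed the adjusted threshold of 0.05 after either fasting regimen, and the 95% interval of every member lay within a 1.5-fold change in both directions.

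**Figure D1:**
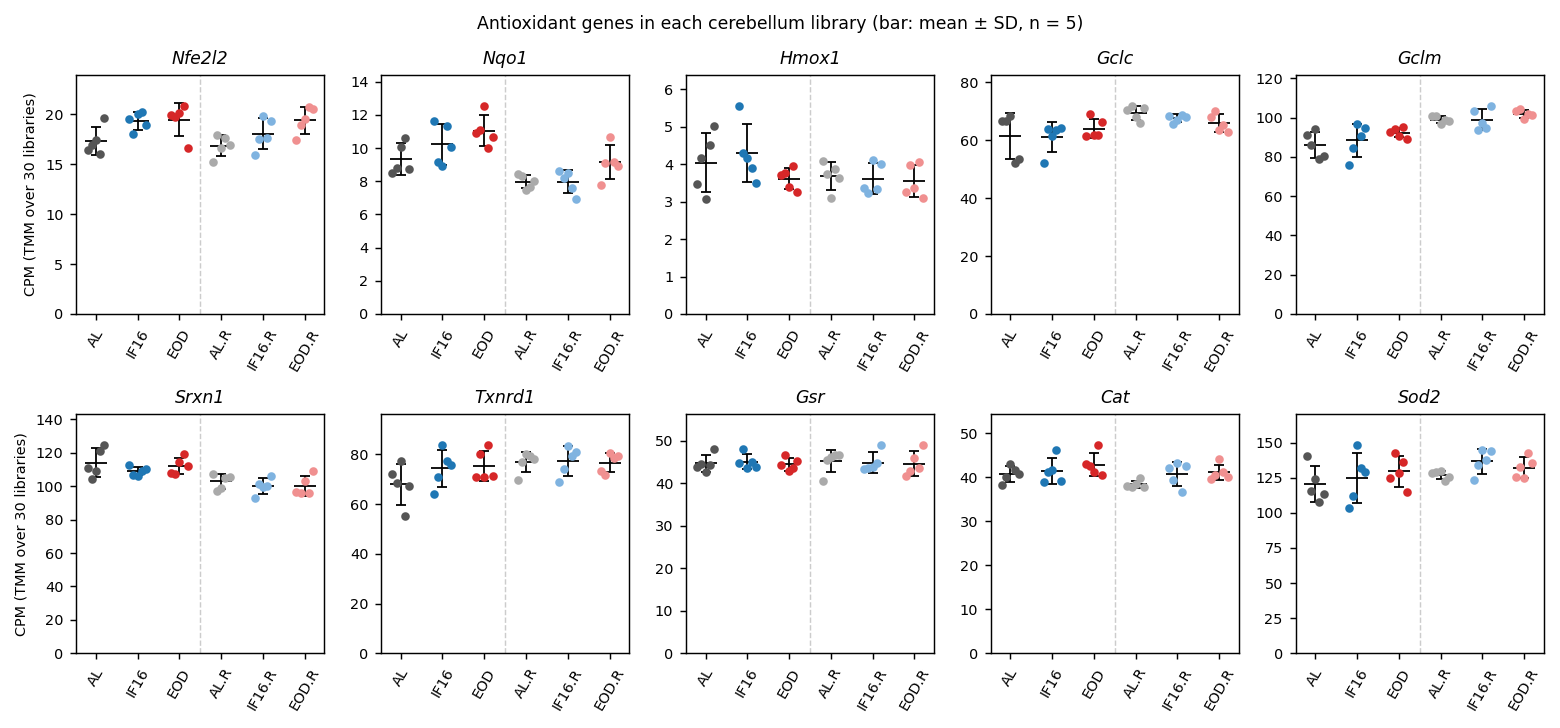
Level of each of the 10 antioxidant genes in each of 30 cerebellum libraries, in CPM scaled over all libraries, with 1 point per library and bars for the mean ± SD of 5 libraries. The groups left of the dashed line were collected at the end of the regimens and those right of it after refeeding. Within each side of the line the groups overlap for every gene, and the points of Gclc, Gclm, Txnrd1 and Sod2 spread more widely on the left.

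Nfe2l2, the gene of the regulator itself, had 16.4, 16.9, 17.4, 16.1 and 19.6 CPM in the 5 AL libraries, 19.5, 18.0, 20.1, 20.2 and 18.9 CPM in IF16 and 19.9, 19.7, 20.1, 20.8 and 16.6 CPM in EOD. The means were 17.3 ± 1.40, 19.3 ± 0.901 and 19.4 ± 1.63 CPM (SD, n = 5 each). AL replicate 5 lay among the IF16 libraries, and the other 4 AL libraries lay below all of them. EOD replicate 5 lay among the AL libraries, and the other 4 EOD libraries lay above all of AL. The log2 fold change was 0.16 in IF16 against AL (95% interval 0.00 to 0.32, adjusted p = 0.503, edgeR) and 0.17 in EOD against AL (interval 0.01 to 0.33, adjusted p = 0.339). These 2 comparisons share the AL libraries. After refeeding the values were 15.2, 17.9, 16.6, 17.6 and 16.9 CPM in refed AL, 16.0, 17.5, 19.9, 17.6 and 19.3 CPM in refed IF16 and 17.4, 18.9, 19.5, 20.7 and 20.5 CPM in refed EOD. In refed EOD, 4 of 5 libraries lay above every refed AL library and replicate 1, at the lowest value of its group, lay within the refed AL range. Replicate 1 was the lowest library in refed AL (15.2 CPM) and in refed IF16 (16.0 CPM) as well. Refed EOD minus refed AL was 0.21 (interval 0.07 to 0.35, unadjusted p = 0.00662, adjusted p = 0.392, edgeR), and refed IF16 minus refed AL was 0.10 (interval -0.05 to 0.24). The refed and fasting differences of EOD from their controls differed by 0.03 (interval -0.17 to 0.24).

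Nqo1 was the member with the widest range of group means. Its libraries had 8.48, 8.77, 10.1, 10.6 and 8.72 CPM in AL, 11.7, 9.15, 8.93, 11.4 and 10.1 CPM in IF16 and 10.9, 11.1, 12.6, 10.03 and 10.7 CPM in EOD. EOD replicate 4 was the only EOD library inside the AL range. EOD minus AL was 0.24 (log2, interval 0.04 to 0.45, unadjusted p = 0.0247, adjusted p = 0.325, edgeR), and IF16 minus AL was 0.13 (interval -0.08 to 0.34). After refeeding the libraries had 8.42, 8.31, 7.49, 7.63 and 8.04 CPM in refed AL, 8.62, 8.21, 8.49, 7.58 and 6.95 CPM in refed IF16 and 7.78, 9.13, 10.7, 9.16 and 8.95 CPM in refed EOD. Again 4 of 5 refed EOD libraries lay above all of refed AL and of refed IF16, and refed EOD replicate 1 did not. Refed EOD minus refed AL was 0.20 (interval 0.03 to 0.37, adjusted p = 0.520), refed IF16 minus refed AL was -0.00 (interval -0.18 to 0.17), and refed EOD minus refed IF16 was 0.20 (interval 0.03 to 0.38, adjusted p = 0.431). None of these passed the threshold. With the length gradient in the model the last value was 0.07, and without IF16 replicate 1 the difference of IF16 from AL was 0.08.

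Hmox1 was the least precisely measured member. Its libraries ranged over 3.06 to 5.03 CPM in AL, 3.50 to 5.56 CPM in IF16, 3.25 to 3.96 CPM in EOD, 3.09 to 4.07 CPM in refed AL, 3.23 to 4.10 CPM in refed IF16 and 3.11 to 4.04 CPM in refed EOD. IF16 replicate 1 held the highest value. The largest difference was between the fasting regimens, -0.25 in EOD against IF16 (log2, interval -0.56 to 0.07, adjusted p = 0.977, edgeR), whose lower bound, 0.677-fold, is the lowest of any member in any comparison. Without IF16 replicate 1 it was -0.13. Against the controls Hmox1 had 0.09 in IF16, -0.16 in EOD, -0.03 in refed IF16 and -0.05 in refed EOD on the log2 scale, all with intervals that include 0.

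The subunits of the glutathione-making ligase differed little from their controls. Gclc had 66.6, 66.7, 68.2, 52.2 and 53.5 CPM in AL, 52.0, 64.0, 61.5, 63.4 and 64.1 CPM in IF16 and 61.4, 68.9, 61.7, 61.6 and 66.2 CPM in EOD. The lowest 3 values belong to AL replicates 4 and 5 and IF16 replicate 1, which are the 3 libraries with the most negative length gradients, and EOD held no such library. Gclc minus control was -0.01 in IF16 (log2, interval -0.19 to 0.17) and 0.06 in EOD (interval -0.12 to 0.24). Gclm, which raises the affinity of the ligase for glutamate and eases its feedback inhibition by glutathione, had 90.9, 85.8, 94.4, 79.1 and 80.5 CPM in AL, 75.7, 84.7, 96.6, 90.5 and 94.5 CPM in IF16 and 92.8, 94.1, 90.7, 94.9 and 89.3 CPM in EOD. The same 3 libraries were again the lowest. Gclm minus control was 0.04 in IF16 (interval -0.11 to 0.18) and 0.10 in EOD (interval -0.05 to 0.25). With the length gradient in the model these values were -0.01 and 0.01, and without the 4 libraries that stood apart Gclc in EOD was -0.06.

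After refeeding both subunits were tighter: Gclc was 69.4 ± 2.5 CPM in refed AL, 67.6 ± 1.34 in refed IF16 and 66.0 ± 3.11 in refed EOD, and Gclm 98.9 ± 1.88, 98.9 ± 5.42 and 102 ± 1.99 CPM (SD, n = 5 each). Gclc in refed EOD against refed AL was -0.07 (log2, interval -0.15 to 0.01, adjusted p = 0.641, edgeR). Gclm in refed EOD against refed AL was 0.05 (interval -0.03 to 0.12). Gsr, which returns oxidised glutathione to its reduced form, was the steadiest member, with group means from 44.5 (EOD) to 45.1 CPM (refed AL). Its largest difference in the 6 comparisons within a cohort was -0.02 on the log2 scale, in EOD against IF16 (interval -0.13 to 0.10).

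In the thioredoxin branch, Txnrd1 had 72.0, 68.5, 77.2, 55.0 and 67.2 CPM in AL, 63.9, 70.9, 83.6, 77.2 and 75.8 CPM in IF16 and 70.9, 80.0, 70.9, 83.7 and 71.3 CPM in EOD. The lowest library of all was AL replicate 4. IF16 minus AL was 0.13 (log2, interval -0.06 to 0.32) and EOD minus AL was 0.15 (interval -0.04 to 0.34, adjusted p = 0.397, edgeR). Without the 4 libraries whose gradient stood apart, a comparison chosen after seeing the data, EOD minus AL was 0.02, and without AL replicate 4 alone IF16 minus AL was 0.06. After refeeding the 3 means lay between 76.6 and 77.3 CPM, and the differences from refed AL were 0.01 in refed IF16 and -0.00 in refed EOD. Srxn1 had 111, 104, 109, 121 and 125 CPM in AL, 113, 107, 106, 109 and 110.1 CPM in IF16 and 108, 107, 115, 119 and 112 CPM in EOD. Here AL replicates 4 and 5 held the highest 2 values instead of the lowest. Its 4 differences from the controls ran from -0.07 (IF16) to -0.02 (EOD), with intervals that include 0.

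Of the enzymes that remove superoxide and hydrogen peroxide, Sod2 had 141, 116, 124, 107 and 113 CPM in AL, 104, 112, 148, 132 and 129 CPM in IF16 and 125, 143, 128, 137 and 115 CPM in EOD. The groups overlapped over nearly their whole range, and the differences were 0.06 (log2, interval -0.15 to 0.26) in IF16 and 0.11 (interval -0.10 to 0.31) in EOD. With the length gradient in the model the EOD value was -0.03. After refeeding Sod2 had 128, 129, 129.7, 123 and 126 CPM in refed AL, 123, 134, 145, 137 and 144 CPM in refed IF16 and 125, 133, 125, 142 and 136 CPM in refed EOD. In refed IF16 4 of 5 libraries lay above every refed AL library and replicate 1 lay among them. Refed IF16 minus refed AL was 0.10 (interval 0.01 to 0.20, unadjusted p = 0.0360, adjusted p = 0.485, edgeR). All refed IF16 libraries also had a higher length gradient (0.0430 to 0.0786) than any refed AL library (0.0133 to 0.0331), and with the gradient in the model the value was 0.00184.

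Catalase, which breaks down hydrogen peroxide in peroxisomes, had 38.0, 37.8, 38.5, 39.8 and 37.8 CPM in refed AL, 42.0, 39.3, 43.3, 36.6 and 42.7 CPM in refed IF16 and 39.7, 40.5, 44.1, 41.2 and 40.0 CPM in refed EOD. Refed EOD minus refed AL was 0.10 (log2, interval 0.00 to 0.20, unadjusted p = 0.0428, adjusted p = 0.574, edgeR), with refed EOD replicate 1 inside the refed AL range. Among the groups at the end of the regimens Cat averaged 40.7 ± 1.78 CPM in AL, 41.4 ± 2.92 CPM in IF16 and 42.9 ± 2.67 CPM in EOD (mean ± SD of 5 libraries), a difference from AL of 0.03 and 0.08.

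Counted over the set, 0 of 10 members were called in IF16 against AL by edgeR, beside 0.0483% of all 16577 genes tested, and DESeq2 called 0 as well. At an unadjusted p under 0.05, 1 member passed (Nfe2l2), beside 9.92% of all genes. In EOD against AL 0 of 10 were called by edgeR and by DESeq2, beside 0.0664% of all genes, with 2 at an unadjusted p under 0.05 (Nfe2l2 and Nqo1), beside 14.4%. EOD against IF16 gave 0 of 10 by both tools, beside 0% of all genes, and 0 at an unadjusted p under 0.05, beside 3.62%. The median log2 fold change of the 10 members was 0.05 in IF16 and 0.09 in EOD, against -0.01 and -0.02 for all genes tested. No member had libraries of one group all above those of the other in these comparisons, which held for 1.51%, 2.92% and 0.676% of all genes in IF16 against AL, EOD against AL and EOD against IF16.

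After refeeding, refed IF16 against refed AL gave 0 of 10 members by edgeR and 0 by DESeq2, beside 0.17% of the 16444 genes tested, with 1 at an unadjusted p under 0.05 (Sod2), beside 9.58%. Refed EOD against refed AL gave 0 of 10 by both tools, beside 0.0426% of all genes. There 3 members (Nfe2l2, Nqo1 and Cat) had an unadjusted p under 0.05, beside 8.5% of all genes. Refed EOD against refed IF16 gave 0 of 10 by both tools, beside 0.0182%, with 1 (Nqo1) at an unadjusted p under 0.05, beside 9.75%. The medians over the members were -0.00, 0.02 and 0.00, against -0.00, 0.00 and 0.00 for all genes. The members' groups overlapped in each of the 3 comparisons, where 2.18%, 1.95% and 1.29% of all genes were separate.

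**Figure D2:**
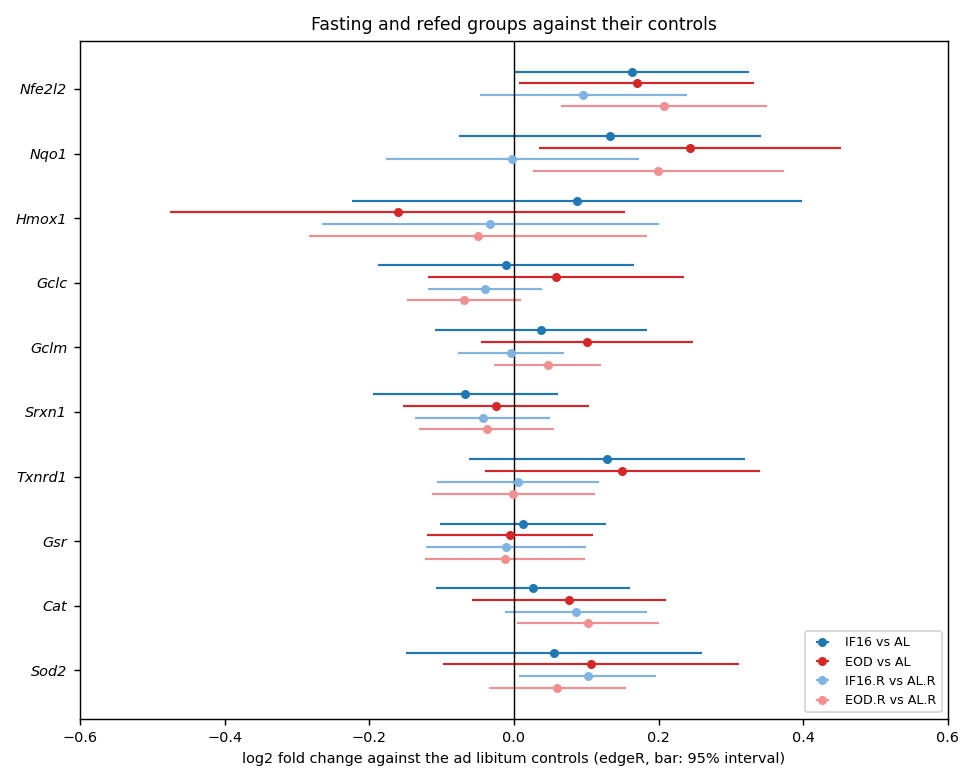
Log2 fold change of each antioxidant gene in the 4 comparisons with ad libitum controls, from edgeR, with bars for the 95% interval. The estimates lie between -0.16 (Hmox1, EOD) and 0.24 (Nqo1, EOD), and the widest intervals belong to Hmox1. None of the values passed the adjusted threshold.

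In the main edgeR fits, the intervals bound the difference of each member in bulk RNA. They are intervals of single genes, not adjusted for the number of members or comparisons. They also leave out shifts between models: Sod2 in EOD against AL went from 0.11 to -0.03 (log2) with the length gradient as covariate. A difference confined to a single cell type is not bounded by them. Over the 4 comparisons with controls the highest upper bound was 0.45 on the log2 scale, or 1.37-fold (Nqo1 in EOD), and the lowest lower bound was -0.48, or 0.719-fold (Hmox1 in EOD). In the refed groups the bounds were closer, from 0.822-fold (Hmox1 in refed EOD) to 1.3-fold (Nqo1 in refed EOD).

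The test of whether the difference from controls changed between the end of the regimens and the end of refeeding called 0 of 10 members for IF16, beside 0.0474% of the 16877 genes in the joint fit, and 0 of 10 for EOD, beside 0.0119%. DESeq2 called 0 in both, and at an unadjusted p under 0.05 there were 0 members in both, beside 7.21% and 10.3% of all genes. The largest of these changes was -0.15 for Txnrd1 in EOD (log2, interval -0.37 to 0.07), and it was -0.02 with the length gradient in the model and -0.08 without AL replicate 4.

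The only comparison in which members passed the test was the one between the control groups, refed AL against AL, where table, cohort and age at collection cannot be told apart. Gclm was higher in refed AL, at 101, 101, 96.5, 98.5 and 98.1 CPM against 90.9, 85.8, 94.4, 79.1 and 80.5 CPM in AL, and the 2 groups did not overlap. The means were 98.9 ± 1.88 and 86.1 ± 6.57 CPM (SD, n = 5 each), a log2 fold change of 0.20 (SE 0.0554, adjusted p = 0.0144, edgeR). Srxn1 was lower in refed AL, at 107, 97.4, 99.1, 105 and 105 CPM against 111, 104, 109, 121 and 125 CPM, with refed AL replicates 1, 4 and 5 inside the AL range. Its log2 fold change was -0.15 (SE 0.0507, adjusted p = 0.0351, edgeR). These 2 of 10 called members stand beside 23.9% of all 16877 genes called, so the share is near the background. Nqo1 did not overlap either, at no more than 8.42 CPM in refed AL and no less than 8.48 CPM in AL, but was not called (-0.23, adjusted p = 0.0660). Members without overlap thus numbered 2 of 10, beside 9.72% of all genes. Gclc, at 0.17 (adjusted p = 0.0550), and Txnrd1, at 0.18 (adjusted p = 0.0827), missed the threshold.

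The calls were lost under several settings. The length gradient ran from -0.187 to 0.0160 in AL and from 0.0133 to 0.0331 in refed AL. With the gradient as a covariate Gclm was 0.08 (edgeR adjusted p = 0.454) and Srxn1 -0.10 (adjusted p = 0.425), and without the 4 libraries that stood apart Gclm was 0.13 (adjusted p = 0.132) and Srxn1 -0.07 (adjusted p = 0.468). Leaving out AL replicate 4 or AL replicate 5 alone also left 0 members called, and Srxn1 was lost without refed AL replicate 2 or 3 too. With the choroid plexus score as covariate 0 members were called (Gclm 0.19, adjusted p = 0.0530, and Srxn1 -0.15, adjusted p = 0.0788) beside 1160 genes in all, and with only AL and refed AL in the fit 0 were called (adjusted p = 0.0690 and 0.125) beside 28 genes in all.

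**Figure D3:**
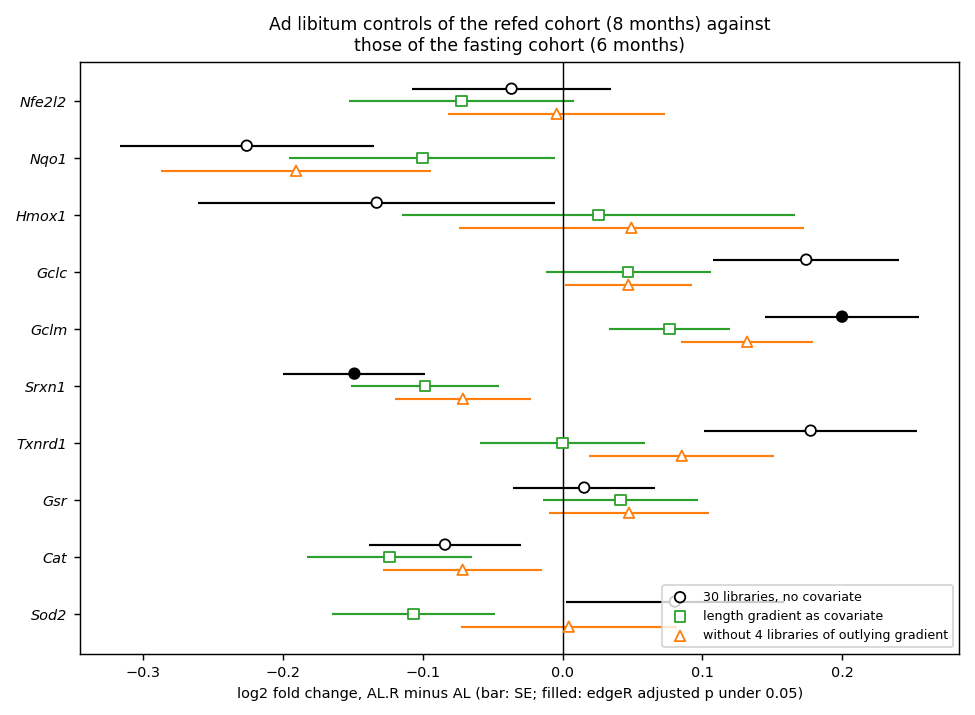
Log2 fold change between the control groups, refed AL minus AL, for each antioxidant gene under 3 models, with bars for the standard error and filled symbols for an edgeR adjusted p under 0.05. Gclm and Srxn1 are filled in the model of 30 libraries without a covariate, and neither is filled once the length gradient enters or the 4 libraries are left out. Txnrd1 moves from 0.18 to 0 and Sod2 from 0.08 to -0.11 with the gradient in the model.

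The dependence of single members on the gradient was measured over the 15 libraries of each table, with 38 relations computed in all and 100000 resamples for each permutation p, of which 1e-05 is the smallest possible. At the end of the regimens Gclm rose with the gradient (Pearson r = 0.89, permutation p = 1e-05, adjusted 0.000380, and Spearman rho = 0.88, permutation p = 4e-05, adjusted 0.000760). Txnrd1 did so with r = 0.88 (permutation p = 2e-05, adjusted 0.000380) and rho = 0.82 (permutation p = 0.000330, adjusted 0.00418), and Sod2 with r = 0.84 (permutation p = 7e-05, adjusted 0.000887) and rho = 0.93 (permutation p = 2e-05, adjusted 0.000760). With the 2 most extreme gradients left out, r was 0.91, 0.78 and 0.86. Within groups it was 0.87, 0.87 and 0.83. Gclc had r = 0.71 (permutation p = 0.00336, adjusted 0.0319) but rho = 0.38 (permutation p = 0.165, adjusted 0.368). After refeeding, Sod2 was the one member with an adjusted p under 0.05 for r (r = 0.68, permutation p = 0.00542, adjusted 0.0412), while its Spearman rho was 0.59 (permutation p = 0.0219, adjusted 0.155), and without the 2 farthest libraries r was 0.35. The gradient is computed from the same counts as the levels, as a slope on gene length, so longer genes tend to rise with it by construction. Gclm, Sod2, Txnrd1 and Gclc are listed at 4841, 3824, 3417 and 3423 bases, above the median of 2963 for all genes tested. The share of all genes with such a relation was not computed, so these p-values do not mark a trait of the members. For 7 of 10 members the libraries of a group spread more among AL, IF16 and EOD than among the refed groups, with a mean coefficient of variation of 11.1% against 4.76% for Sod2 and 8.86% against 3.43% for Gclc.

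**Figure D4:**
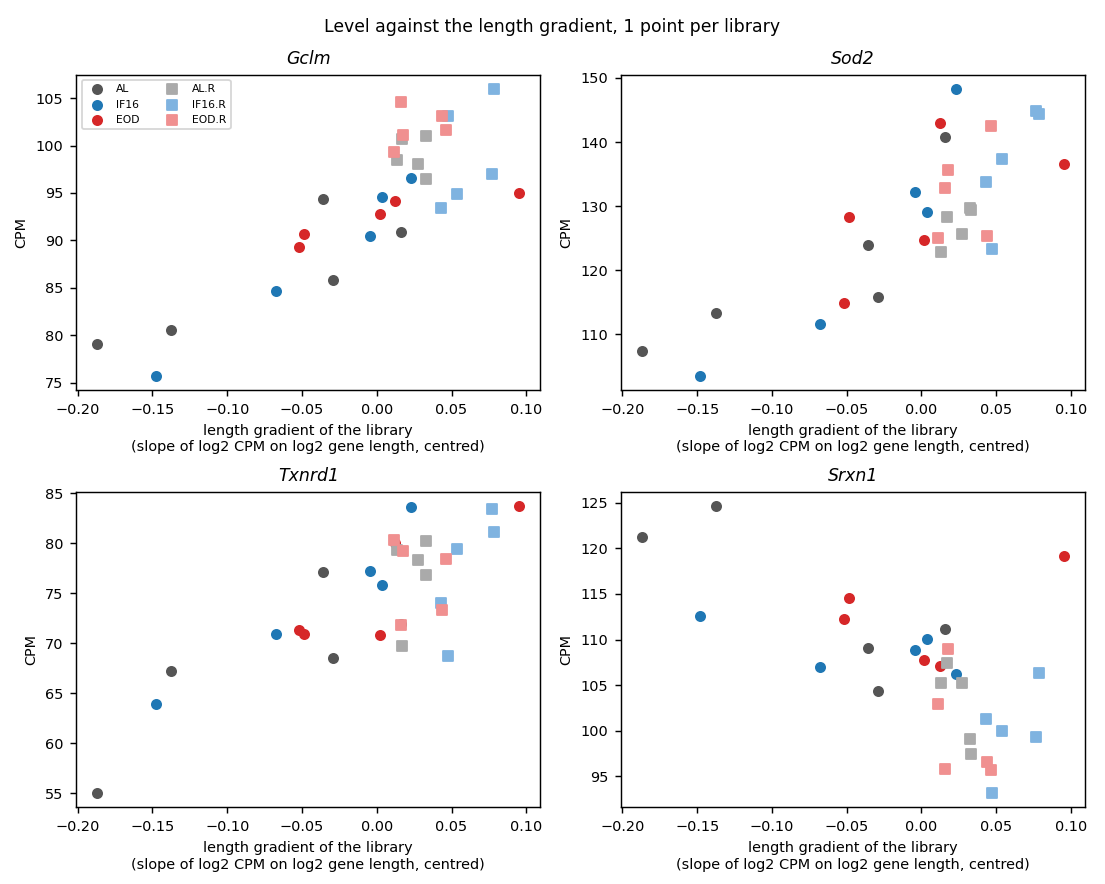
Level of Gclm, Sod2, Txnrd1 and Srxn1 in CPM against the length gradient of the library, with 1 point per library, circles for the groups at the end of the regimens and squares for the refed groups. The axes do not start at 0. Among the circles, levels of Gclm and Txnrd1 are lowest in the 3 libraries with the most negative gradients, and Sod2 is low in them, whereas the highest 2 Srxn1 values belong to AL libraries among these 3.

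Around the members, 66 genes of 7 lists were read in the same fits. The lists cover the control of NRF2, glutathione use, thioredoxin and peroxiredoxin, the other superoxide dismutases, supply of NADPH (the electron donor of both reductases), heme and iron handling, and detoxification and export. All 66 were tested. Of them 0 were called by edgeR in any of the 6 comparisons within a cohort or in the 2 tests of change, and at an unadjusted p under 0.05 there were 3 higher and 2 lower in IF16 against AL, beside 9.92% of all genes, and 6 higher and 2 lower in EOD against AL, beside 14.4%. EOD against IF16 had 0 higher and 1 lower, beside 3.62% of all genes, and refed IF16 against refed AL 4 and 1, beside 9.58%. Refed EOD against refed AL had 6 and 2, beside 8.5%, and refed EOD against refed IF16 7 and 1, beside 9.75%. The tests of change had 0 higher and 2 lower for IF16, beside 7.21% of all genes, and 8 higher and 6 lower for EOD, beside 10.3%. DESeq2 called 1 list gene in IF16 against AL, EOD against AL, refed EOD against refed AL and refed EOD against refed IF16, and 0 in the others. Over all genes it called 94, 133, 87 and 123 in these 4. The median log2 fold change over the lists was -0.03 in IF16 and -0.06 in EOD, against -0.01 and -0.02 for all genes. It was -0.01 in refed IF16 and 0.05 in refed EOD against refed AL. In the latter 51 of 66 list genes were higher in refed EOD, beside 50.3% of all genes. The median was 0.04 in refed EOD against refed IF16, with 49 of 66 higher, beside 52.1% of all genes. It was 0.09 in the test of change for EOD, with 45 of 66 higher, beside 51.0%. Whether these counts differ from those shares was not tested. All genes had medians of -0.00, 0.00, 0.00 and 0.00 in these 4.

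The list gene with the smallest p-value in both fasting comparisons was Txnip, whose protein binds and inhibits thioredoxin and whose transcription is known to follow glucose and glucocorticoid signals. Txnip had 16.0, 14.2, 15.7, 14.6 and 13.9 CPM in AL, 17.5, 21.0, 30.5, 41.8 and 42.4 CPM in IF16 and 27.3, 21.7, 40.0, 30.1 and 27.6 CPM in EOD. Every library of both regimens lay above every AL library. Groups were without overlap for 1.51% of all genes in IF16 against AL and 2.92% in EOD against AL. Because Txnip was picked by its p-value, this separation is not separate evidence. The log2 fold change was 1.04 in IF16 (SE 0.211, adjusted p = 0.105, edgeR) and 0.98 in EOD (SE 0.211, adjusted p = 0.153), so it missed the threshold in both, which share the AL libraries. DESeq2 called it in both, with adjusted p = 0.000972 and 0.00331, beside 94 and 133 genes in all, where edgeR called 8 and 11. By edgeR it was also called without IF16 replicate 1 in IF16 against AL (adjusted p = 0.0196) and with only the groups compared in EOD against AL (adjusted p = 0.0307). Over all alternatives the log2 fold change lay between 0.90 and 1.19 in IF16 and between 0.84 and 1.07 in EOD. After refeeding Txnip had 16.1 ± 2.72 CPM in refed AL, 16.5 ± 4.64 in refed IF16 and 17.9 ± 4.44 in refed EOD (SD, n = 5 each), and the groups overlapped. The test of change gave -1.01 for IF16 (interval -1.63 to -0.39, adjusted p = 0.418, edgeR) and -0.83 for EOD (interval -1.45 to -0.21, adjusted p = 0.449).

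**Figure D5:**
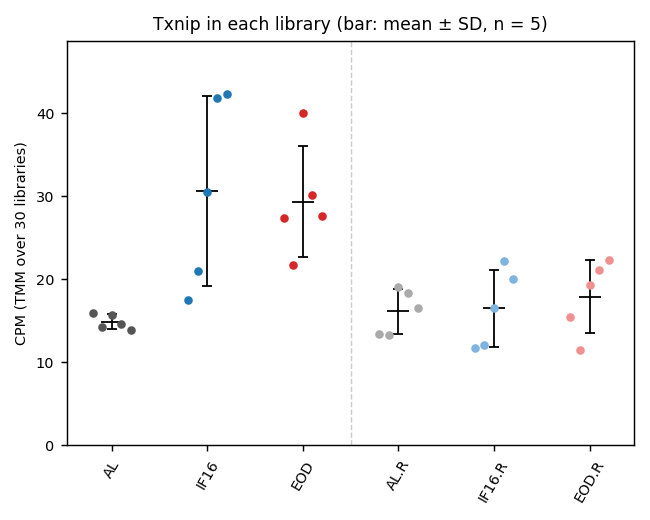
Level of Txnip in each library in CPM, with 1 point per library and bars for the mean ± SD of 5 libraries. The AL libraries lie between 13.9 and 16.0 CPM, below every IF16 library (17.5 to 42.4) and every EOD library (21.7 to 40.0), and the 3 refed groups overlap.

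The 10 genes of NRF2 control, which include the inhibitor Keap1, the ligase subunits Cul3 and Rbx1, the partners Mafg, Mafk and Maff and the competing repressors Bach1 and Bach2, had 0 called in either fasting comparison by edgeR. In EOD against AL 5 of the 10 had an unadjusted p under 0.05, beside 14.4% of all genes. All 5 had higher means in EOD, a direction that 7.02% of all genes had at that level. These were Maff, Mafk, Mafg, Cul3 and Bach2, named after their values were seen, with log2 fold changes of 0.78, 0.26, 0.24, 0.25 and 0.54 and adjusted p from 0.293 to 0.337. Keap1 was 56.9 CPM in EOD and 59.2 CPM in AL, a difference of -0.06 (interval -0.24 to 0.12). The length gradient was also higher in EOD (-0.0521 to 0.0953) than in AL (-0.187 to 0.0160), and with the gradient in the model the 5 values were 0.82, 0.26, 0.10, 0.08 and 0.21, of which Maff and Mafk had an unadjusted p under 0.05. In the other comparisons within a cohort the list had at that level 1 higher in IF16 against AL, beside 9.92% of all genes. It had 2 higher in refed IF16 against refed AL, beside 9.58%, and 1 lower in refed EOD against refed IF16, beside 9.75%. There were none in EOD against IF16, beside 3.62%, or refed EOD against refed AL, beside 8.5%.

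Among the other lists, Sod1, the cytosolic superoxide dismutase, had the smallest p-value in refed EOD against refed IF16. It had 138, 154, 155, 151 and 152 CPM in refed EOD and 127, 134, 134, 134 and 132 CPM in refed IF16. The groups did not overlap, which held for 1.29% of all genes. The log2 fold change was 0.19 (SE 0.0389, adjusted p = 0.117, edgeR). DESeq2 called Sod1 (adjusted p = 0.00216), beside 123 genes in all, where edgeR called 3. Without refed EOD replicate 1 edgeR called Sod1 as well (adjusted p = 0.0106). Sod1 is listed at 646 bases, and with the length gradient in the model, which was 0.0113 to 0.0463 in refed EOD and 0.0430 to 0.0786 in refed IF16, its value was 0.13 (unadjusted p = 0.0239, not called by edgeR) and the list genes with an unadjusted p under 0.05 went from 8 to 2. Ggt7, a member of the gamma-glutamyltransferase family, had the smallest p-value in refed EOD against refed AL, at -0.13 (168 ± 5.75 against 185 ± 3.67 CPM, adjusted p = 0.239 by edgeR and 0.0345 by DESeq2). Sesn1, a stress-inducible regulator of peroxiredoxin reduction and of mTORC1, led refed IF16 against refed AL at 0.14 (adjusted p = 0.349). Idh1, a cytosolic source of NADPH, led EOD against IF16 at -0.15 (adjusted p = 0.977) and the test of change for EOD at 0.29 (interval 0.14 to 0.44, adjusted p = 0.262).

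Between the control groups 25 of 66 list genes were called and all 25 were lower in refed AL, beside 12.4% of all genes called lower and 11.5% called higher. They were 8 of 16 glutathione genes (Gpx1, Gpx3, Gpx4, Gsta4, Gstm1, Gstm5, Gstp1 and Mgst3), 7 of 11 thioredoxin and peroxiredoxin genes (Txn1, Txn2, Txnrd2, Prdx1, Prdx2, Prdx5 and Prdx6) and both superoxide dismutases outside the members (Sod1 and Sod3). A further 3 of 8 NADPH genes (G6pdx, Taldo1 and Idh1), 4 of 7 heme and iron genes (Blvra, Blvrb, Fth1 and Ftl1) and 1 of 10 control genes (Rbx1) were called, and 0 of 12 detoxification genes. Txn1 had the smallest p-value, at 56.6 CPM in refed AL against 73.6 CPM in AL (log2 -0.38, SE 0.0828, adjusted p = 0.00535, edgeR), and Ftl1, the ferritin light chain, was 309 against 431 CPM (-0.48, adjusted p = 0.00938). The largest fall was in Gpx3 (-0.82, from 10.1 to 5.71 CPM), the secreted glutathione peroxidase. The 25 genes had a median listed length of 1289 bases, against 3225 for the other 41 list genes and 2963 for all genes tested. With the length gradient as covariate 1 list gene was called (Bach2), and without the 4 libraries that stood apart 2 were (Gpx1 and Txn1). With the choroid plexus markers as covariate, whose sum ran from 46.2 to 4272 CPM in AL and from 44.5 to 2006 CPM in refed AL, 5 were called (Gpx1, Gpx3, Gstm5, Mgst3 and Txn1).

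Genes whose library-to-library pattern was most like that of each member were found on log2 CPM over the 30 libraries after removal of group means, among 13384 protein-coding genes with a mean of at least 1 CPM. For Nfe2l2 the closest 3 were Hnrnpf (Pearson r = 0.78), Slc15a4 (0.76) and Ppp2r5a (0.73). For the other members the closest gene and its r were Cdc26 (0.79) for Nqo1, Ier3 (0.68) for Hmox1, Tnpo3 (0.87) for Gclc, Mob1b (0.91) for Gclm and Vamp2 (0.84) for Srxn1. They were Lats2 (0.91) for Txnrd1, Cables1 (0.75) for Gsr, Lins (0.69) for Cat and Kpna1 (0.93) for Sod2. The points share the gradient and depth of their library, and these values are descriptions without a test.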

How the data were processed

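RNA-seq of mouse cerebellum was deposited as 2 tables of 15 libraries each. The authors deposited raw read counts for each gene, and FPKM values that can be recomputed from those counts with the listed gene lengths and column totals (largest relative difference 4.97e-12 for genes with at least 10 counts). Per the submitters' processing notes the tools include STAR 2.5, HTSeq 0.6.1 and DESeq2, with genome build mm10; strand setting, annotation release and RNA selection are not given in the sources used here. The files with repeated values or group means were not used.

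Counts were tested with edgeR 4.0.16 (TMM, filterByExpr by group, quasi-likelihood test) in R 4.3.3, with 1 fit per table (16577 and 16444 genes) and a joint fit of 30 libraries (16877 genes) for the tests of change and for refed AL against AL. P-values were adjusted by Benjamini-Hochberg over all genes tested, and called means an adjusted p under 0.05. Intervals (95%) and standard errors come from the same fits. edgeR's common biological coefficient of variation was 14.3% for the fasting table and 8.05% for the refed one. Over 60 pairs of libraries of a group, a chi-square statistic of their counts ran from 4.25 to 135 per degree of freedom, so none agreed within sampling noise. Alternatives were DESeq2 1.42.0, RLE scaling, other filters, only the groups compared, a replicate block, covariates (length gradient, choroid plexus markers) and leaving out libraries. The statistical code was tested on simulated data.

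The members and the gene lists were chosen with earlier results of these data known. Named are all members, the list genes called in any comparison or with the smallest p-value in one, and the genes most like each member (3 for Nfe2l2, 1 for each other). Promoter sequences come from RefSeq (GRCm38.p6), and the coordinates of the deposited tables were not converted.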

Additional observations from a re-analysis of the deposited data

Results flagged for a closer look

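Over the 10 members and 6 groups, 60 sets of 5 libraries were checked for a single library far from the other 4, and 4 stood out, where chance gives about 1 in 20. Nfe2l2 in EOD replicate 5 was 16.6 CPM, below the other 4 at 19.7 to 20.8 CPM. Gclc in IF16 replicate 1 was 52.0 CPM, below the others at 61.5 to 64.1 CPM, and that library also has a length gradient of -0.148. Gsr in refed AL replicate 1 was 40.6 CPM, below the others at 45.6 to 46.8 CPM. Gsr in refed IF16 replicate 5 was 49.0 CPM, above the others at 43.3 to 44.7 CPM. For Gsr, replicate 1 was also the lowest library in refed IF16 (43.3 CPM) and in refed EOD (41.7 CPM). Replicate 5 was also the highest in refed EOD (48.9 CPM), but not in refed AL (46.6 CPM).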

How the results depend on the processing

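In the 6 comparisons within a cohort and in both tests of change, the number of members called was 0 under every alternative run. For single members, 1866 values under alternatives were computed: 15 lost and 8 gained a call, all in refed AL against AL, and 139 changed sign. Of these, 133 were differences below their standard error, for which no direction is claimed. A further 2 exceeded their standard error and fell to a value that rounds to 0. They were Txnrd1 in refed AL against AL with the length gradient as covariate (from 0.18, SE 0.0761) and Srxn1 in IF16 against AL without the 4 libraries whose gradient stands apart (from -0.07, SE 0.0607). The other 4 were Sod2 in EOD against AL with the length gradient as covariate (-0.0305), Sod2 (-0.107) and Hmox1 (0.0256) in refed AL against AL with that covariate, and Hmox1 there without the 4 libraries (0.0492), an alternative chosen after seeing the data. In refed AL against AL the 2 called members became 1 with no filter, 0 with only the groups compared, 0 with the length gradient, 0 with the choroid plexus score and 0 without the 4 libraries, and 0 to 5 when 1 library was left out. The count of 25 called list genes became 0 with only the groups compared (fewer samples), 1 with the gradient (Bach2, so 0 of the 25 were still called), 5 with the choroid plexus score and 2 without the 4 libraries (all among the 25), and 4 to 31 with 1 library left out. The cause was not tested. List genes called rose from 0 to 1 with DESeq2 in IF16 against AL, EOD against AL, refed EOD against refed AL and refed EOD against refed IF16, to 1 with only the groups compared in EOD against AL, and to between 0 and 1 with 1 library left out in IF16 against AL and in refed EOD against refed IF16. Genes called over all genes ranged, beside the main counts, from 3 to 94 for 8 (IF16 against AL), 2 to 133 for 11 (EOD against AL), 0 to 1 for 0 (EOD against IF16), 0 to 105 for 28 (refed IF16 against refed AL), 0 to 87 for 7 (refed EOD against refed AL), 0 to 123 for 3 (refed EOD against refed IF16), 4 to 36 for 8 and 0 to 14 for 2 (change for IF16 and EOD), and 28 to 6173 for 4030 (refed AL against AL). With the replicate number as a block 0 members were called and 1 list gene was called in refed EOD against refed IF16 (Sod1), while genes called over all rose to 95 in refed IF16 against refed AL, 45 in refed EOD against refed AL and 40 in refed EOD against refed IF16. The numbers are not taken to pair the libraries: correlations of same-numbered libraries fell as low as -0.515 in the fasting table and -0.0678 in the refed table. Of 30 libraries, 9 correlated best with their own number. In the refed table the correlations ran from -0.00870 to 0.414 for number 1 and from -0.0678 to 0.0714 for number 3. They were all above 0 for numbers 2 (0.0197 to 0.0886), 4 (0.107 to 0.153) and 5 (0.0970 to 0.236). Refed libraries of the same number thus varied together in part, and the main refed tests hold no term for the number. What the numbers stand for was not tested. No block could be fitted for refed AL against AL, whose numbers lie within a table. Depth limits Hmox1 most, at 95 to 186 counts.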

Other observations

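Nfe2l2 was also set against each other member over the 15 libraries of each table, and no relation had an adjusted p under 0.05 over the 38 relations computed. The closest were after refeeding, with Sod2 at r = 0.63 (permutation p = 0.0127, adjusted 0.0807) with Spearman rho = 0.59 (permutation p = 0.0245, adjusted 0.155) and 0.55 without the 2 libraries farthest from the median Nfe2l2 level, and with Txnrd1 at r = 0.61 (permutation p = 0.0151, adjusted 0.0822) with Spearman rho = 0.54 (permutation p = 0.0409, adjusted 0.212) and 0.64 without the farthest 2. Within groups these values of r were 0.70 and 0.83. At the end of the regimens Sod2 gave r = 0.38 (permutation p = 0.162, adjusted 0.363) with Spearman rho = 0.47 (permutation p = 0.0756, adjusted 0.261) and Txnrd1 gave r = 0.53 (permutation p = 0.0405, adjusted 0.149) with Spearman rho = 0.50 (permutation p = 0.0614, adjusted 0.233).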
